A study of Rattus norvegicus with 145 samples.

Results

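The hepatic expression of organic ion transporter genes was measured in 145 Wistar rats given the food contaminant acetamide. The genes were taken by symbol and comprise every Slc22a, Slco and Slc47a gene of the count tables, 36 of the 17337 genes listed: 19 Slc22a genes, 15 Slco genes and 2 Slc47a genes. These gene families were chosen with earlier results of these data known. In experiment A, male Hsd:WI rats aged 9 to 10 weeks were gavaged daily for 7 days, with a vehicle group at 0 and doses from 30 over 100 and 300 to 1000 mg per kg per day (mkd), and were sampled on day 8. In experiment B, male and female Crl:WI rats aged 8 to 10 weeks received 0, 300, 500, 750, 1000 or 1500 mkd for 7 days (sampled on day 8) or 28 days (sampled on day 29). All rats, vehicle controls included, were dosed with water as the vehicle and fasted overnight before the left liver lobe was taken. Each of the 29 groups held 5 rats, which gives 25 rats of experiment A and 120 of experiment B, of which 60 were male and 60 female. Each sex and day of experiment B was deposited as its own count table, so that sex and table cannot be told apart, and neither can experiment and supplier stock.

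The Slco genes encode the organic anion transporting polypeptides, which in hepatocytes sit mainly in the basolateral membrane and carry bile acids, bilirubin, steroid and thyroid hormone conjugates and many drugs out of sinusoidal blood. The Slc22a genes encode the organic cation transporters, the carnitine and ergothioneine carriers, the organic anion transporters best known from the kidney proximal tubule, and several members with no well established substrate. The Slc47a genes encode the multidrug and toxin extrusion proteins, which export organic cations. In rodents several of these genes are known to differ between the sexes, under the control of growth hormone secretion and sex steroids.

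Between 15449716 and 39986531 reads per rat fell on genes (median 28262376). Levels are given as CPM (each gene's count scaled to a fixed library total), scaled by the trimmed mean of M-values (TMM) over all rats. They compare rats for a gene, and not a gene with another, since no transcript lengths of the files' genome build were used. The sex labels were checked with genes of known sex bias. Cyp2c11, the male-specific cytochrome P450, ranged from 40.0 to 2845 CPM in the 85 males and from 0 to 34.6 in the 60 females, and the Y-linked Eif2s3y from 28.9 to 87.8 and from 0 to 0.780 CPM. The Y-linked Ddx3y overlapped, at 2.99 to 13.4 CPM in males and 4.15 to 16.1 in females. The tissue sampled was liver, and the 10 hepatocyte markers summed to at least 200797 CPM in every vehicle rat. All 10 passed the filter in every data set, which by itself needs only low counts. A few rats stood apart from their group in genes that bear on the transporters. The vehicle male of experiment A replicate 5 had 137 CPM of Slc22a8 and 715 of Cyp2c11, against 407 to 510.0 and 1169 to 1659 in the other 4. The 1500 mkd male of day 29 replicate 3 had a summed cell cycle gene level of 1408 CPM, against 51.3 to 126. The paper treated this rat as an outlier in labeling of the proliferation marker Ki67. Its Cyp2c11 (40.0 CPM) and Cyp2a2 (362) lay below the other 4 (954 to 1732 and 894 to 1083), and its Akr1b7 (16.9) above them (at most 0.765). Its Cyp3a2 (473) and Cyp2c12 (60.5) lay within their range. The 300 mkd female of day 29 replicate 3 had 8.79 CPM of Slc22a8 with 34.6 of Cyp2c11 and 0.780 of Eif2s3y, each above the other 4 females (at most 0.515, 1.42 and 0.0644).

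Promoters are shown for 4 genes that the results turn on: Slc22a8 and Slc22a25, which differed most between the sexes, and Slco1b2 and Slco1a1, which were lower with dose. The sequences are RefSeq's, of build GRCr8, and run 5′ to 3′ on the gene's strand from 250 bases before to 50 bases after the start: Slc22a8 at chr1:214927034-214927333 (+ strand), Slc22a25 at chr1:214862291-214862590 (- strand), Slco1b2 at chr4:176282334-176282633 (+ strand) and Slco1a1 at chr4:176681943-176682242 (- strand). Capitals mark matches, on either strand, to the half-site GTTAAT of the hepatocyte factor HNF1 or to TTCNNNGAA, the element bound by STAT factors such as the growth hormone target STAT5B.
Slc22a8: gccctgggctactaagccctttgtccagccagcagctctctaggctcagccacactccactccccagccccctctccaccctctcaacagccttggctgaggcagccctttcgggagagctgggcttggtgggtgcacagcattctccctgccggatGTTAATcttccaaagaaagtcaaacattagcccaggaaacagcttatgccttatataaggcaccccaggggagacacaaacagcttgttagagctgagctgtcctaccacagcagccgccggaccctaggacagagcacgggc
Slc22a25: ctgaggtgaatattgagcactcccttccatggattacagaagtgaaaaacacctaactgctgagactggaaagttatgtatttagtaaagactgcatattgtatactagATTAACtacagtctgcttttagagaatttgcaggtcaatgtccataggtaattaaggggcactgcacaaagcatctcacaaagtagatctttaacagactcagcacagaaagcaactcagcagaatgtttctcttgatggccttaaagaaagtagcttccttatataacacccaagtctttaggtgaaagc
Slco1b2: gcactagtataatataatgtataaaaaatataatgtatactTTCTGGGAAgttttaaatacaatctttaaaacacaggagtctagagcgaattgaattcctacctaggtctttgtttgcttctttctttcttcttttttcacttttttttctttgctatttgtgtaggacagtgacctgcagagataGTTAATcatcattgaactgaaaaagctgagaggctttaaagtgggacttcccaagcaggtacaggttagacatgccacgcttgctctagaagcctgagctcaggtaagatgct
Slco1a1: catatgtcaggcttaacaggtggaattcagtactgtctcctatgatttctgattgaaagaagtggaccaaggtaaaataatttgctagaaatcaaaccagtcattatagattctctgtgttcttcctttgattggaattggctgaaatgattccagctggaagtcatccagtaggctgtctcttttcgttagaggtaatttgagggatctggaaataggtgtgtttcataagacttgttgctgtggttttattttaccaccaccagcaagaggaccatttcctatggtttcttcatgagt
The GTTAAT half-site was in 4 of the 30 transporter promoters of the RefSeq table (13.3%), beside 7.45% of all 33469 promoters searched. The 4 were those of Slc22a8 (first match at -93 from the start), Slc22a25 (-141), Slc22a24 (-123) and Slco1b2 (-63). TTCNNNGAA was in 3 of the 30 (10%), beside 8.87% of all: Slco2b1 (-78), Slc22a24 (-175) and Slco1b2 (-209). The printed window of Slco1a1 holds neither string of letters.

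Of the 36 genes, 24 passed the filter on low counts in at least 1 of the 5 data sets and 17 in all 5, while 12 were tested in none. Those 12 were Slc22a2, Slc22a12, Slc22a13, Slc22a14, Slc22a20, Slc22a22, Slc47a1, Slco1a6, Slco4c1, Slco6b1, Slco6c1 and Slco6d1, and in no rat did any of them exceed 0.350 CPM. The last 3 had 0 counts in all 145 rats. A count was found in every rat for 15 genes, and 14 genes reached 10 CPM in at least 1 rat. Among the genes called in no dose comparison, sex comparison or common trend, Slc22a7, the organic anion transporter Oat2, ranged from 93.8 to 186 CPM in the males and 79.6 to 166 CPM in the females of experiment B. Slc22a18 ranged from 169 to 319 and from 105 to 238 CPM. Slc22a15 (at most 12.6 CPM), Slc22a3, the extraneuronal monoamine carrier Oct3 (at most 1.05), Slco1c1, a thyroxine carrier of brain barriers (at most 0.747), and Slco1a5 (at most 2.57) were low. In all, 18 of the 24 genes were called in at least 1 of the 13 results at the highest dose, for the trend, between the vehicle sexes or for an interaction, as were 4355 of all 11836 genes tested (36.8%). A gene was called where its level changed by 1.5 times or more and edgeR's quasi-likelihood F-test gave an adjusted p (Benjamini-Hochberg, over all genes of the comparison) no higher than 0.05. Counts of the close paralogs Slco1a1, Slco1a2, Slco1a5 and Slco1a6 are uncertain where reads fit more than 1 of them, and the symbol Slco1a2 is a RefSeq synonym of both rat genes Slco1a4 and Slco1a5.

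The largest differences between the sexes among the transporter genes called were those of the organic anion transporters Slc22a8, Slc22a25 and Slc22a6, all lower in females. In vehicle rats of day 8, 896 of 11224 genes (7.98%) were called between females and males, and 6 of the 22 transporter genes tested, of which 4 were lower and 2 higher in females (background 4.15 and 3.83%). Every female lay below every male in 4 transporter genes and above in 1 (background 4.52 and 5.02%). On day 29 the counts were 1326 of 11224 genes (11.8%) and 7 of 22 transporter genes, 4 lower and 3 higher (background 5.79 and 6.02%), and the groups stood fully apart with females lower in 4 and higher in 2 (background 6.39 and 5.91%). Slc22a8, Slc22a25 and Slc22a6 passed the filter only through their counts in males, so these counts of calls are not independent of the filter. Slc22a13, not tested, had 13 counts in vehicle females against 0 in males on day 8 and 15 against 1 on day 29. Slco1a6, also not tested, had 11 against 11 and 1 against 11. Slc22a8, the organic anion transporter Oat3, was at 451, 285, 531, 436 and 412 CPM in the vehicle males of day 8 and at 0.317, 0.0881, 0.156, 0.0441 and 0.107 CPM in the females. Every male lay far above every female, and the 5 females together held 20 counts beside 55569 in the 5 males. With library sizes taken into account this is a ratio of 2889 (95% interval 1871 to 4730.3, counting error only; log2 female minus male -11.48 ± 0.36 (SE), adjusted p = 9.71e-15 by edgeR). On day 29 the males were at 425, 527, 444, 527 and 289.6 CPM and the females at 0.114, 0.125, 0.0396, 0.233 and 0.158 CPM. The separation was as wide, with 18 against 60317 counts and a ratio of 3313 (2096 to 5591).

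Slc22a25 and Slc22a6 were also male-biased, at far fewer counts. Slc22a25 was at 3.78, 1.75, 2.04, 2.76 and 3.66 CPM in the vehicle males of day 8 and at 0 in all 5 females, 360 counts against 0, so that males were at least 125-fold higher over the group floor of 3 counts. On day 29 the males were at 2.12, 2.97, 4.94, 4.20 and 3.85 CPM and the females held 2 counts against 495. In the GRCr8 annotation Slc22a25 lies on the strand opposite to Slc22a8. From the starts of the printed promoters the 2 genes run away from each other, and whether any gene spans overlap is not shown here. Whether the counting used strand is not given in the sources used here either, so that reads of overlapping genes may not be told apart. Slc22a6, the para-aminohippurate transporter Oat1, was at 0.655, 0.262, 0.862, 0.533 and 0.383 CPM in the males and at 0 in all females of day 8 (71 counts against 0, at least 24.6-fold higher in males). On day 29 it was at 0.719, 0.665, 0.975, 0.718 and 0.419 CPM in males, and 1 count was found in the females against 96. Kidney tubule markers were low in these samples: the 9 markers summed to 20.1 to 30.7 CPM in the vehicle males and 8.99 to 15.6 CPM in the vehicle females of day 29, with 3 and 2 of them at 0, and 3 of the 9 were tested in each data set.

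The carnitine and ergothioneine carriers differed in opposite directions between the sexes. Slc22a4, the ergothioneine transporter Octn1, was at 2.81, 3.32, 4.97, 3.92 and 2.93 CPM in vehicle males and 0.600, 1.497, 1.02, 1.06 and 1.67 CPM in vehicle females of day 8 (log2 female minus male -1.62 ± 0.26, adjusted p = 0.000254). On day 29 its level was 4.14, 4.19, 4.18, 4.52 and 4.08 CPM in males and 1.37, 1.62, 1.19, 2.25 and 2.93 CPM in females (-1.17 ± 0.25, adjusted p = 0.00320). All females lay below all males on both days. Slc22a5, the carnitine transporter Octn2, was at 60.6, 20.6, 37.1, 41.4 and 30.0 CPM in males and 72.2, 77.6, 102, 112 and 114 CPM in females of day 8 (1.33 ± 0.23, adjusted p = 0.000554). On day 29 it was at 33.2, 56.6, 51.6, 37.1 and 67.4 CPM in males and at 86.4, 98.9, 114, 93.2 and 115 CPM in females (1.05 ± 0.23, adjusted p = 0.00370). All females lay above all males on both days.

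Another 2 calls between the sexes, of Slc47a2 and Slco3a1, rested on low levels or on 1 rat. Slc47a2, a toxin extrusion transporter, had a mean of 0.468 CPM in males and 1.41 in females of day 8 (1.59 ± 0.39, adjusted p = 0.0107), and was not called on day 29 (0.48 ± 0.38). Slco3a1, a prostaglandin and vasopressin carrier, was called higher in females of day 29 (2.22 ± 0.70, adjusted p = 0.0343), where 1 female was at 13.2 CPM and the other 4 at 0.349 to 1.40. The call was lost without that rat and without any 1 of 4 males. Without that rat the difference was 0.25. Slco1a2 was at 284, 221, 476, 282 and 458 CPM in vehicle males and 125, 105, 127, 237 and 231 CPM in vehicle females of day 8, with an overlap of the groups (-1.07 ± 0.39, adjusted p = 0.0890). Its difference on day 29 had the same size (-1.07 ± 0.39, adjusted p = 0.0649), and neither passed the threshold. For the other Slco genes of high counts the difference was -0.67 ± 0.27 and -0.50 ± 0.26 in Slco1a1, 0.26 ± 0.27 and 0.33 ± 0.27 in Slco1b2, 0.06 ± 0.13 and -0.03 ± 0.13 in Slco2b1, and 0.30 ± 0.17 and -0.47 ± 0.17 in Slco2a1 on days 8 and 29, and none was called.

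**Figure D1:**
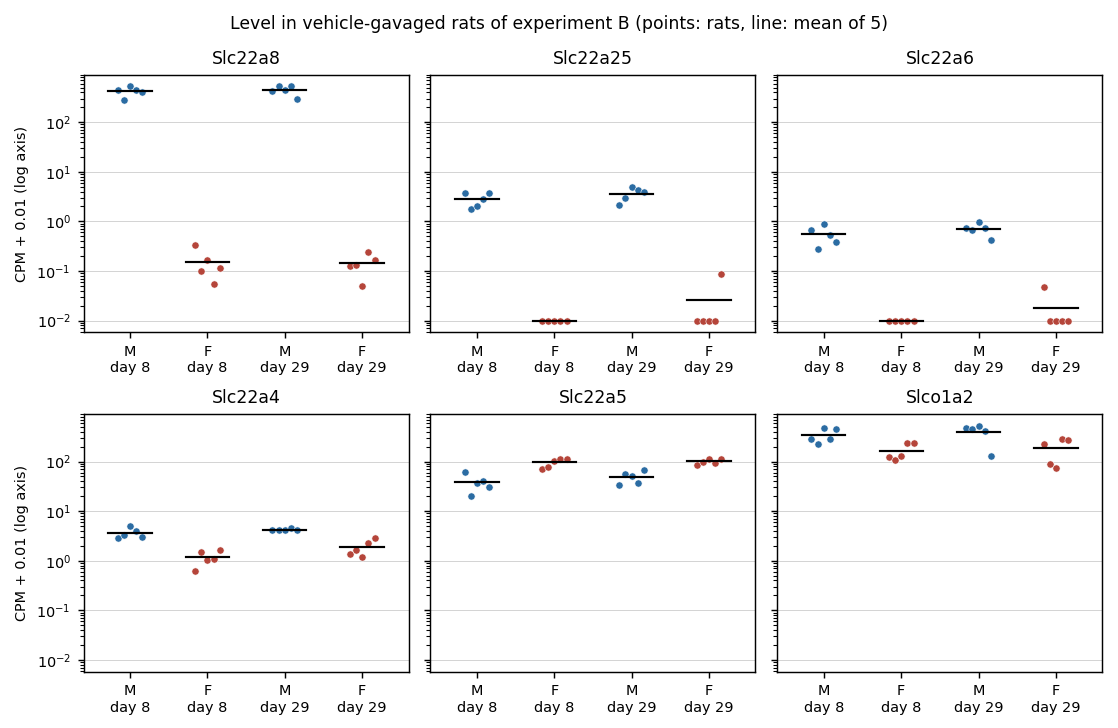
Levels of 5 Slc22a genes and Slco1a2 in the vehicle rats of experiment B, as CPM plus 0.01 on a log axis, for males and females of day 8 and day 29; each point is a rat and each line a group mean of 5. Slc22a8, Slc22a25, Slc22a6 and Slc22a4 were lower in every female than in every male, Slc22a5 was higher in every female, and the sexes overlapped in Slco1a2.

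The sex difference of Slc22a8 held at every dose. Over all doses and both days of experiment B the 60 males ranged from 87.2 to 592 CPM with a median of 379.9, and the 60 females from 0 to 8.79 with a median of 0.136. The highest female was the 300 mkd rat of day 29 described above, with 214 counts. At 1500 mkd on day 8 the females were at 0.0595, 0.622, 0.411, 1.68 and 0.163 CPM, which are counts of 2, 23, 9, 36 and 3 (vehicle counts 9, 3, 4, 1 and 3). This difference of 1.98 ± 0.71 was not called (adjusted p = 0.158), and 3 of the 5 treated females lay above all vehicle females. Slc22a25 did not exceed 0.0879 CPM and Slc22a6 did not exceed 0.0381 CPM in any of the 60 females. Slc22a5 spanned 20.6 to 89.4 CPM in the males and 63.0 to 182 CPM in the females.

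Most calls at a highest dose were made in experiment A, where 1000 mkd for 7 days lowered 9 of the 21 transporter genes tested and raised 0. Over all genes 2424 of 11323 (21.4%) were called, 7.45% lower and 14.0% higher. The median log2 fold change of the transporter genes was -0.65, beside 0.000929 over all genes, and 18 of the 21 were below 0, beside 49.96% of all genes. The median of the 10 hepatocyte markers tested was -0.68, so a fall of this size was not particular to the transporter genes. In 7 genes every treated rat lay below every vehicle rat, which 8.73% of all genes did. Those described here comprised uptake carriers of bile acids and steroid conjugates (Slco1a1, Slco1a2, Slco1b2, Slco2b1), the ergothioneine carrier Slc22a4, the organic anion transporter Slc22a8, and Slc22a17 and Slc22a23. Since whole liver was measured, fewer cells of a type and less RNA per cell cannot be told apart. Raw counts summed over the 5 rats fell less than the scaled levels. They fell from 49778 to 23242 in Slco1a1, from 38983 to 29863 in Slco2b1 and from 531 to 452 in Slc22a4. The median reads per rat were 31830845 in vehicle and 29885189 in treated rats. The size of the changes thus rests in part on the TMM scaling.

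Among the organic anion transporting polypeptides, Slco1a1, which carries bile acids and steroid conjugates, was at 298, 374, 304, 372 and 489 CPM in the vehicle males and at 165, 55.7, 189, 118 and 121 CPM at 1000 mkd. The groups did not overlap, and the fold of the treated to the vehicle level was 0.360 (log2 fold change -1.47 ± 0.27, SE, adjusted p = 0.000568). Slco1b2, the rodent counterpart of the human bilirubin and statin carriers OATP1B1 and OATP1B3, was at 410.4, 633, 588, 978 and 1077 CPM in vehicle rats and 412, 124, 496, 217 and 292 CPM in treated rats (-1.23 ± 0.33, adjusted p = 0.00781). Here the groups overlapped, since 2 treated rats lay within the vehicle range. Slco2b1, a carrier of steroid sulfates, was at 297, 316, 309, 288 and 244 CPM in vehicle rats and at 227, 84.8, 219, 134 and 161 CPM in treated rats (-0.79 ± 0.18, adjusted p = 0.00285), without overlap. Slco1a2 was at 224, 238, 253, 312 and 316 CPM in vehicle rats and at 195, 68.5, 202, 188 and 141 CPM in treated rats (-0.73 ± 0.23, adjusted p = 0.0215), also without overlap. The treated rat of replicate 2 was the lowest in all 4 of these genes, and without it, or without replicate 5, Slco1a2 was no longer called (-0.53 and -0.68). The prostaglandin carrier Slco2a1 had -0.74 ± 0.33 with an adjusted p of 0.0871.

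Of the Slc22a genes, Slc22a23, whose substrates are not well established, was at 252, 236, 213, 272 and 203 CPM in vehicle rats and at 140.2, 55.6, 169.9, 109 and 117 CPM in treated rats (-0.96 ± 0.22, adjusted p = 0.00243), again without overlap. Slc22a8 was at 439, 510.0, 407, 408 and 137 CPM in vehicle rats and 205, 30.4, 308, 115 and 92.8 CPM in treated rats (-1.31 ± 0.40, adjusted p = 0.0157). The groups overlapped because vehicle replicate 5 lay within the treated range, and without that rat the difference was -1.53. Fitted with these 2 groups alone, Slc22a8 was not called (-1.31). Slc22a4 was at 4.52, 2.73, 3.96, 3.58 and 4.90 CPM in vehicle rats and at 3.43, 2.09, 3.23, 1.99 and 1.44 CPM in treated rats (-0.67 ± 0.22, adjusted p = 0.0224), with an overlap, and the call was lost without vehicle replicate 5 or without treated replicate 2, 4 or 5 (-0.58, -0.61, -0.60 and -0.52). Slc22a17, the lipocalin-2 receptor, had means of 32.7 and 19.1 CPM (-0.75 ± 0.17, adjusted p = 0.00225) without overlap. Among the genes not called the values were -0.46 ± 0.18 for Slc22a7, -0.41 ± 0.27 for Slc22a5, -0.65 ± 0.26 for Slc22a25 and -0.43 ± 0.38 for Slc22a6, and above 0 for Slco4a1 (1.12 ± 0.53), Slco3a1 (0.62 ± 0.35) and Slc22a15 (0.33 ± 0.25).

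Markers of cell types moved in the same rats. At 1000 mkd in experiment A, 5 of the 10 hepatocyte markers tested were lower and 0 higher, Alb among them (-0.91 ± 0.27), and their summed level was 296594 to 390804 CPM in vehicle and 94862 to 287925 CPM in treated rats, the lowest being replicate 2. Of the macrophage markers 7 of 11 were higher (summed level 668 to 2001 against 1652 to 2908 CPM), of the T and NK cell markers 8 of 8 (8.85 to 9.82 against 12.1 to 37.1), of the endothelial markers 4 of 6 (74.6 to 163 against 133 to 268) and of the stellate cell markers 1 of 8 (259.7 to 639.7 against 462 to 658). No marker of these lists was at 0 in all rats of either group. None of 7 cholangiocyte markers was called, 2 of 4 erythroid markers were lower (7 in the list, 1 at 0 in both groups), and 17 of 18 cell cycle genes were higher. The part of these changes in the lower transporter levels was not tested.

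**Figure D2:**
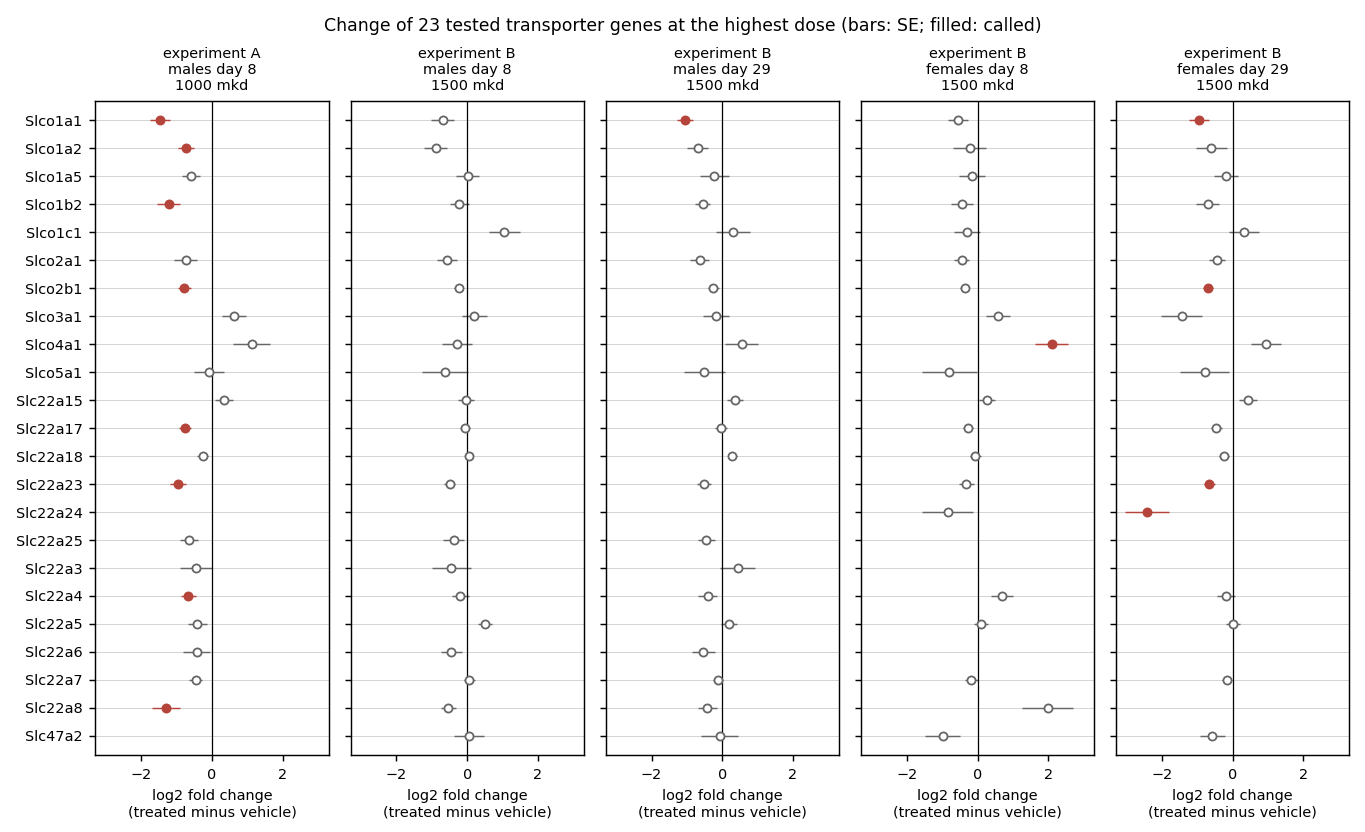
Log2 fold change (treated minus vehicle, SE bars) of 23 tested transporter genes at the highest dose of each data set; filled red points were called, and a gene not tested in a data set has no point. The panel of experiment A shows 8 called genes, all below 0, and the panels of experiment B show 0, 1, 1 and 4.

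In experiment B the calls at 1500 mkd were fewer. In males of day 8, 20 of 11304 genes (0.177%) were called and 0 of 23 transporter genes (median -0.23, all genes -0.0039). At an unadjusted p under 0.05 there were 7 transporter genes and 1429 of all genes (12.6%), and the smallest adjusted p was 0.150, of Slc22a23. In males of day 29, 554 of 11279 genes (4.91%) were called, 1.76% as lower, and 1 of 23 transporter genes (median -0.23, all genes 0.070), the same number in which all treated rats lay below all vehicle rats (background 4.66%). That gene was Slco1a1, at 339, 371, 422, 350.1 and 328 CPM in vehicle rats and 128, 194, 117, 233 and 180.2 CPM in treated rats, without overlap (fold 0.480, log2 -1.06 ± 0.22, adjusted p = 0.00911). Slco1b2 (-0.56 ± 0.21), Slco1a2 (-0.70 ± 0.30), Slco2a1 (-0.65 ± 0.26) and Slc22a23 (-0.52 ± 0.19) had adjusted p of 0.0928, 0.134, 0.116 and 0.0868. Slc22a8 was at 343, 332, 87.2, 409.8 and 447 CPM, and the lowest was the rat with the high cell cycle level. The summed hepatocyte markers were 222667 to 289393 CPM in vehicle and 128250 to 249342 CPM in these treated males, with 1 of 10 called lower, and their part was not tested.

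In females of day 8, 81 of 11497 genes (0.705%) were called, 0.522% as higher, and 1 of 21 transporter genes (median -0.27, all genes -0.0038). All treated females lay below all vehicle females in Slco2a1 and Slco2b1 (background 1.15%), and neither was called. The called gene was Slco4a1, a thyroid hormone carrier, which rose from counts of 0, 2, 7, 3 and 3 to counts of 9, 17, 13, 18 and 5 (log2 2.10 ± 0.47, adjusted p = 0.0380). The counts are small and the groups overlap, and with a block for the replicate number, or without 1 of 7 of these 10 rats, the call was lost. In females of day 29, 1498 of 11451 genes (13.1%) were called, 3.54% as lower, and 5 of 20 transporter genes, all lower (median -0.52, all genes -0.0018). In 3 of the 20 the treated rats lay below all vehicle rats (background 2.60%). Slco2b1 was at 298, 254, 235, 295 and 355 CPM in vehicle rats and at 172, 109, 185, 215 and 206 CPM in treated rats (-0.69 ± 0.14, adjusted p = 0.00140), without overlap. Slc22a23 was at 286, 363, 269.6, 262 and 228 CPM in vehicle rats and at 179.5, 123, 177, 195 and 217 CPM in treated rats (-0.66 ± 0.16, adjusted p = 0.00452), also without overlap. Slco1a1 was at 311, 147, 121, 335 and 359.8 CPM in vehicle rats and at 91.9, 66.6, 153, 177 and 164 CPM in treated rats (-0.96 ± 0.29, adjusted p = 0.0190). In Slco1a1 the vehicle females themselves fell apart into 2 low and 3 high rats, and the 2 low ones lay within the treated range. Its call was lost without vehicle replicate 4 or 5 or treated replicate 1 or 2 (-0.86, -0.80, -0.86 and -0.80), and that of Slc22a23 also without vehicle replicate 2 (-0.55). Slc22a24, a steroid conjugate carrier of the organic anion transporter group, had counts of 8, 14, 7, 26 and 13 in vehicle and 5, 2, 3, 4 and 2 in treated females (-2.42 ± 0.62, adjusted p = 0.00774), and in CPM the groups did not overlap.

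The females of day 29 also differed in cell type markers. Their summed hepatocyte markers were 200797 to 401639 CPM in vehicle and 99859.9 to 202314 CPM in treated rats, with 2 of 10 lower and 1 higher, and replicate 2 of the treated group was the lowest (99859.9, the other 4 at 166474 to 202314). Without that rat Slc22a23 (-0.55), Slco1a1 (-0.80) and Slco2b1 (-0.56) were no longer called, and 2 of the 5 calls were left. Macrophage markers were higher in 4 of 11 (1149.8 to 1341 against 1259 to 2485 CPM), T and NK cell markers in 2 of 7, endothelial markers in 2 of 6, stellate cell markers in 2 of 8, cholangiocyte markers in 2 of 7 and cell cycle genes in 18 of 18, while 3 of 4 erythroid markers were lower. The part of these changes in the transporter levels was not tested. In these females the hepatocyte markers had a median log2 fold change of -0.49, beside -0.52 in the transporter genes. At 1500 mkd the hepatocyte marker median was -0.11 and -0.09 in males of days 8 and 29 and -0.20 in females of day 8. The transporter medians there were -0.23, -0.23 and -0.27. At the highest doses of the 5 data sets, each with its own controls, 9 of the 17 genes tested in all 5 were below 0 in every one and 0 were above 0 in every one. They included Slco1a1, Slco1a2, Slco1b2, Slco2a1, Slco2b1, Slco5a1, Slc22a17 and Slc22a23, most of them without a call in most data sets. Of all genes 49.96% were below 0 in experiment A, 50.5 and 41.6% in males of days 8 and 29, and 50.8 and 50.2% in females of days 8 and 29. The share of all genes below 0 in all 5 was not computed.

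Lower doses gave few calls. Over the 19 comparisons below the highest dose, 2 transporter calls were made, and in 10 of the 19 no gene at all was called, 30, 100 and 300 mkd of experiment A among them (324, 232 and 218 genes at an unadjusted p under 0.05 in edgeR). In the other comparisons the share of all genes called was 0.780% and 2.76% in males of day 29 at 750 and 1000 mkd, 0.00870, 0.0174, 0.0174 and 1.37% in females of day 8 at 300, 500, 750 and 1000 mkd, and 0.0349, 0.183 and 1.59% in females of day 29 at 500, 750 and 1000 mkd. Summed over the 19 comparisons the 2 calls were 0.487% of the transporter gene tests, beside 0.356% of all gene tests. DESeq2 made 11 transporter calls over the same 19 comparisons, 1.80% beside 0.777% of all gene tests. In males of day 29 at 1000 mkd Slco1b2 was lower (761, 1252, 894, 733 and 838 CPM in vehicle, 775, 405, 517, 468 and 419 CPM in treated rats, -0.77 ± 0.21, adjusted p = 0.0387), beside 1.81% of all genes called lower, with 1 treated rat within the vehicle range. Slco1a1 in the same males was at -0.73 ± 0.22 (adjusted p = 0.0518), not called here but called in all 5 alternatives run over these comparisons. In females of day 8 at 1000 mkd Slco2a1, the prostaglandin carrier, was lower (366, 321, 427, 326 and 386 CPM in vehicle, 179, 181, 238, 165 and 155 CPM in treated rats, -0.98 ± 0.21, adjusted p = 0.0198), beside 0.348% of all genes called lower, without overlap. At 300 mkd of experiment A the mean of Slco1a1 was 325 ± 29.1 CPM (SD, n = 5) beside 367 ± 77.0 CPM in the vehicle group. This lay within 1 SD of the vehicle mean, and the 1000 mkd mean was 129.9 ± 51.3 CPM.

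**Figure D3:**
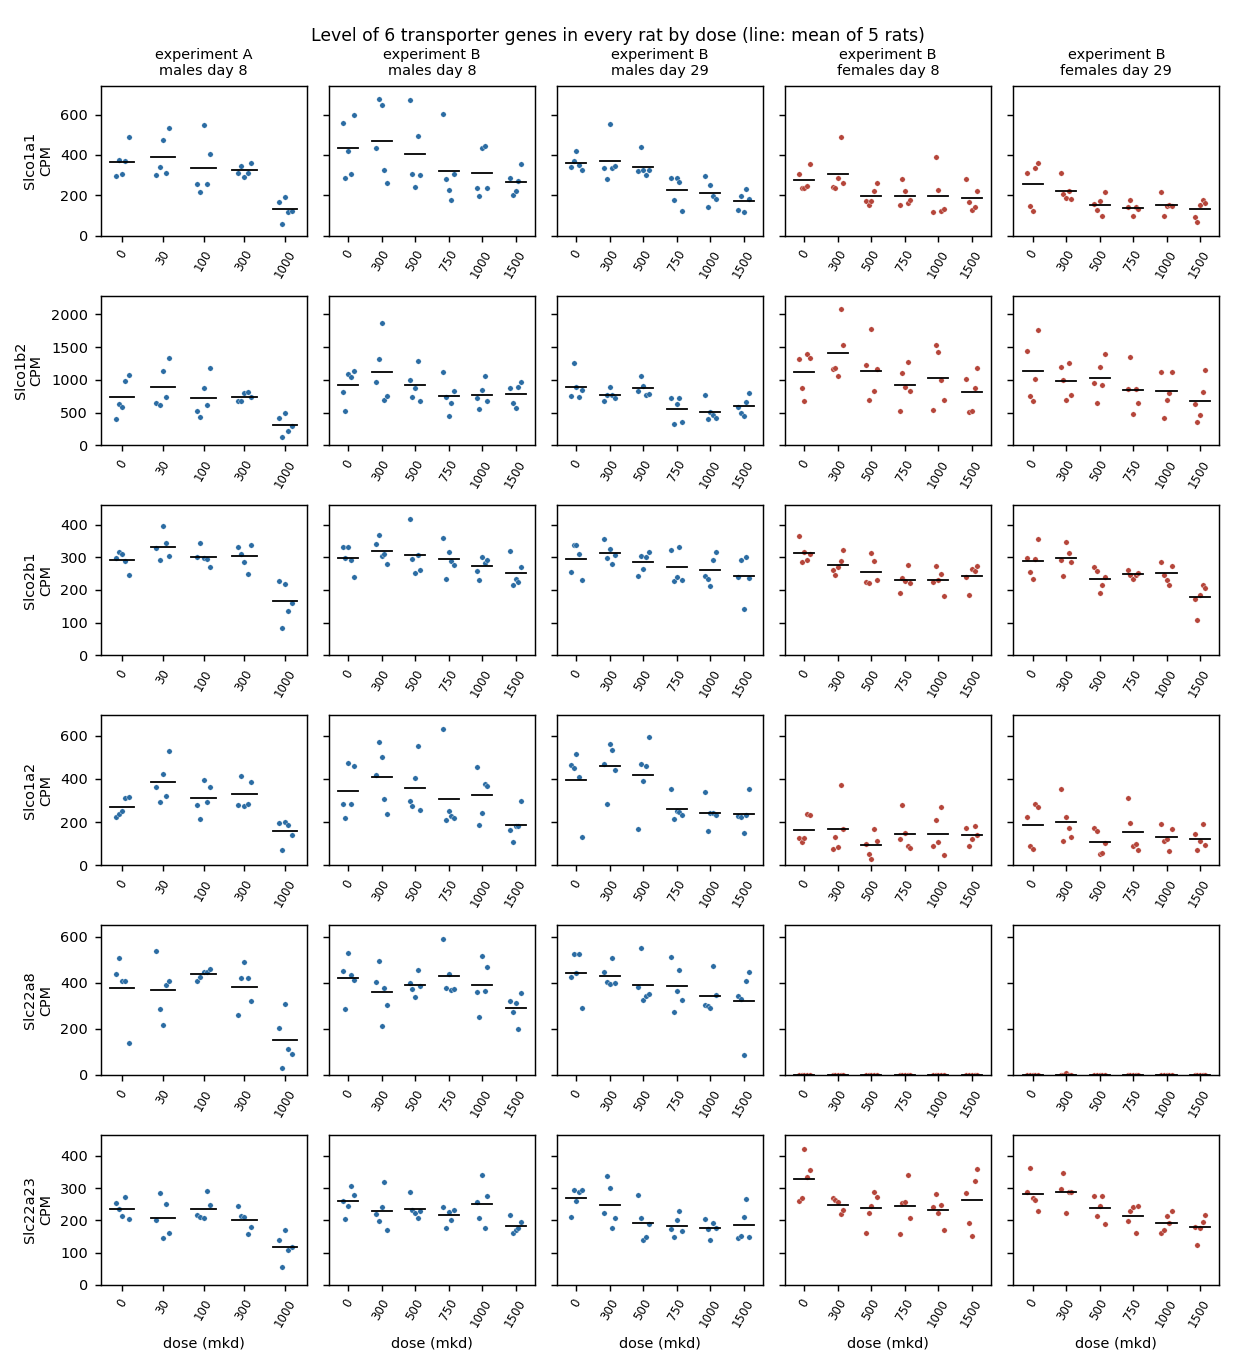
CPM of 6 transporter genes in every rat against dose (mkd) in the 5 data sets; each point is a rat, each line a group mean of 5, and each gene has its own axis from 0. In experiment A the 1000 mkd group lies lowest for all 6 genes, in experiment B the mean of Slco1a1 is lower at 1500 mkd than in vehicle rats in all 4 data sets, and Slc22a8 is near 0 in all females.

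A dose trend common to the 4 data sets of experiment B used all 120 rats. Of 11800 genes 1286 (10.9%) were called, 2.69% as lower and 8.21% as higher, by the fitted change at 1500 mkd. Of the 24 transporter genes tested 6 were lower and 1 higher, with a median of -0.36 beside 0.0071 over all genes, and 20 were below 0. The share of all genes below 0 in this fit was not computed. Slco1a1 had the smallest adjusted p (fold 0.524 at 1500 mkd, log2 -0.93 ± 0.13, SE, adjusted p = 2.96e-09). It was lower in males (-1.05) and in females (-0.80) fitted alone, and on day 8 (-0.75) and day 29 (-1.10). Slco1b2 (-0.62 ± 0.13, adjusted p = 2.60e-05) and Slco2a1 (-0.60 ± 0.12, adjusted p = 1.24e-05) were lower, and fell under the fold limit without replicate number 2 or 3 (-0.55 and -0.56) and 2 or 4 (-0.48 and -0.58). Slco1a2 was lower as well (-0.67 ± 0.18, adjusted p = 0.00161), at -0.97 in males and -0.38 in females. Its call was lost in females fitted alone and without the 1500 mkd groups (-0.69). The call of Slco1b2 was lost in males fitted alone (-0.57) and that of Slco2a1 in females fitted alone (-0.58). On day 8 fitted alone all 3 were lost (-0.50 for Slco1b2, -0.47 for Slco2a1 and -0.49 for Slco1a2). Slc22a24 (-1.53 ± 0.34, adjusted p = 0.000124) and Slco5a1 (-0.77 ± 0.31, adjusted p = 0.0315), both with low counts, were lower, and the call of Slco5a1 was lost in each sex and each day fitted alone and without replicate number 1, 2 or 4 (-0.54, -0.74 and -0.72). Slco4a1 rose (0.69 ± 0.21, adjusted p = 0.00463), with 1.25 in females and 0.09 in males, and was lost without replicate number 4 (0.58). Slco1c1, not called over all rats (0.37 ± 0.19), was called higher in males fitted alone (0.84, adjusted p = 0.0180), with -0.06 in females. Slc47a2, not called over all rats either (-0.43 ± 0.20), was called lower in females fitted alone (-0.78, adjusted p = 0.0198), with -0.02 in males. On day 29 fitted alone Slc22a23 (-0.68, adjusted p = 3.30e-06) and Slc22a25 (-0.69, adjusted p = 0.0188) were called lower, with -0.30 and -0.35 on day 8.

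Another 7 genes had an adjusted p of at most 0.05 for the trend with a fitted change under 1.5-fold. Slco2b1 (-0.42 ± 0.06, adjusted p = 2.86e-08) and Slc22a23 (-0.49 ± 0.08, adjusted p = 6.50e-07) were lower by this smaller amount. Slc22a25 (-0.53 ± 0.18) and Slc22a17 (-0.22 ± 0.07) were also below 0, and Slc22a15 (0.32 ± 0.10) and Slc22a5 (0.24 ± 0.10) above 0. For Slc22a8 the common trend was -0.50 ± 0.30 (adjusted p = 0.171), with -0.43 in males (adjusted p = 0.0200), under the fold limit. Of the 21 genes fitted in both sexes 17 had the same sign in both, a share that was not computed over all genes.

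**Figure D4:**
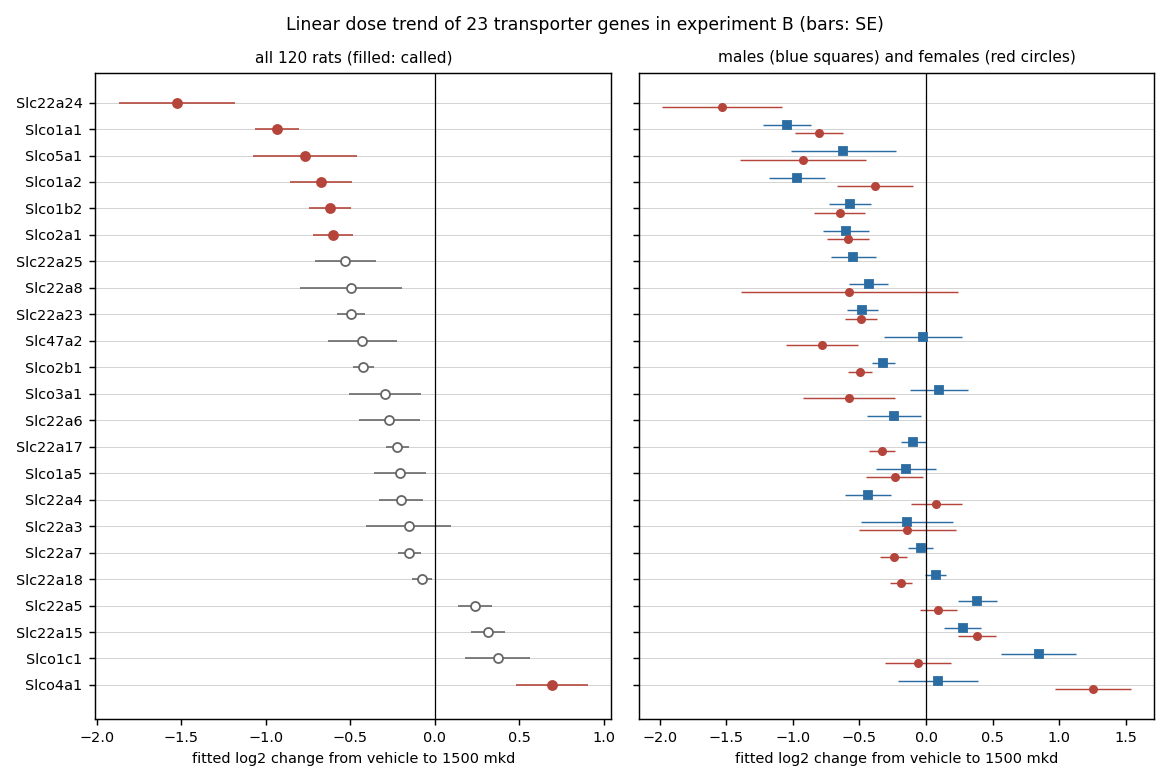
Fitted log2 change from 0 to 1500 mkd with SE bars in experiment B; the left panel shows all 120 rats with called genes filled, and the right panel males (blue squares) and females (red circles) fitted apart. Slco1a1 is below 0 in both sexes, and Slco4a1 is above 0 in females and near 0 in males.

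Whether the response differed between sexes or days was tested as an interaction at 1500 mkd. Between the sexes on day 8, 0 transporter genes and 0 of all 11800 genes (0%) were called by edgeR, with 5 of 24 transporter genes and 510 of all genes at an unadjusted p under 0.05, and 0 transporter genes by DESeq2. Between the sexes on day 29, 52 of 11800 genes (0.441%) and 0 transporter genes were called by edgeR and 0 by DESeq2, with 4 of 24 transporter genes and 2033 of all genes (17.2%) at an unadjusted p under 0.05. For Slco4a1 on day 8 the difference was 2.38 ± 0.64 (adjusted p = 0.461). Between day 29 and day 8, 0 of 11800 genes (0%) in males and 2 (0.0169%) in females were called, with 547 and 928 at an unadjusted p under 0.05. Of the transporter genes 0 were called in either sex by edgeR or DESeq2, and 0 and 3 had an unadjusted p under 0.05. These tests do not show that the responses were alike. For Slco1a1 between the sexes on day 29 the SE was 0.42, beside a difference of 0.14.

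At the dose of 1000 mkd in males of day 8, which both experiments used, the response differed in 799 of 11579 genes (6.90%) and in 2 of 24 transporter genes, both more negative in experiment A (background 1.98%). Slc22a23 changed by -0.96 ± 0.22 in experiment A and by -0.04 ± 0.16 in experiment B (A minus B -0.93 ± 0.27, adjusted p = 0.0279), with 255, 208, 339.8, 175 and 276 CPM in the treated rats of experiment B and 261, 204, 246, 308 and 277 CPM in their controls. For Slco1a1 the values were -1.47 ± 0.27 and -0.48 ± 0.33, and the difference was not called (adjusted p = 0.151). For Slc22a8 they were -1.31 ± 0.40 and -0.10 ± 0.20 (adjusted p = 0.0757). With replicate number 4 or 5 left out of both experiments neither difference was called (-1.01 and -0.98 for Slc22a23), and without number 2 that of Slc22a23 was lost (-0.73). The supplier stocks and age ranges of the experiments differ too and cannot be told apart from the experiment.

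**Figure D5:**
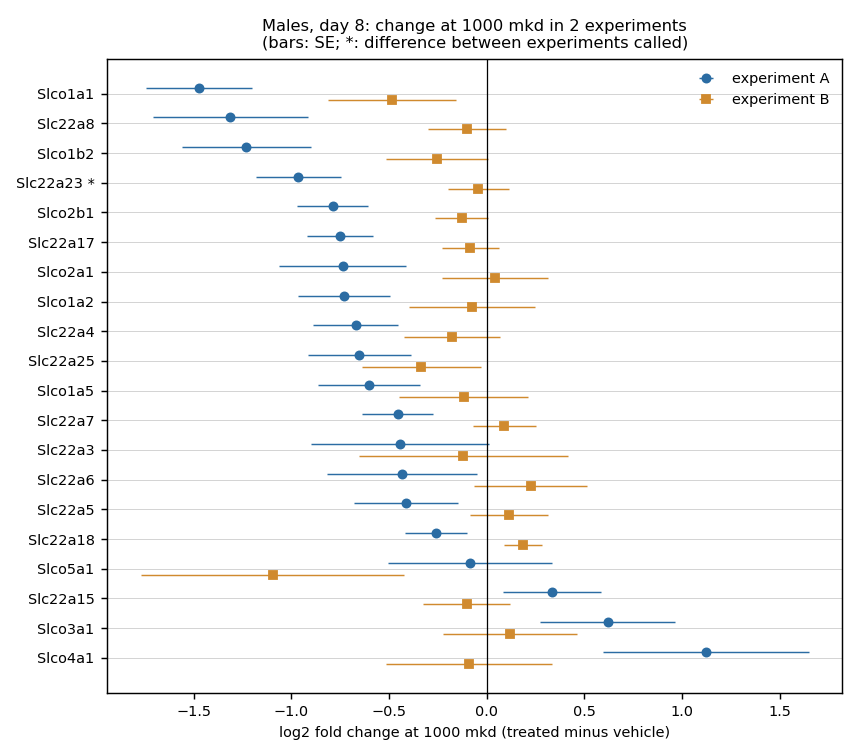
Log2 fold change at 1000 mkd in males of day 8 with SE bars, for experiment A (blue circles) and experiment B (orange squares); an asterisk marks a called difference between the experiments. Slc22a23 carries the asterisk, and the points of experiment A lie lower than those of experiment B for most genes.

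Other hepatic transporters at the highest doses moved both ways. Of all genes 14.0% were called higher and 7.45% lower in experiment A. In males of day 29, 356 of 11279 genes were called higher and 198 lower, and in females of day 29, 1093 of 11451 higher and 405 lower. On day 8 the calls were 16 higher and 4 lower of 11304 in males, and 60 higher and 21 lower of 11497 in females. Of 9 canalicular efflux pumps 1 was higher and 1 lower in experiment A and in females of day 29, 1 was higher in males and in females of day 8, and 2 were lower in males of day 29. The higher one was Abcb1b, the drug efflux pump P-glycoprotein, each time (3.25 ± 0.33 in experiment A, 2.88 ± 0.62 in males of day 8, 3.71 ± 0.52 in females of day 8 and 2.90 ± 0.53 in females of day 29). The bile salt export pump Abcb11 was lower (-0.83 ± 0.20 in experiment A and -0.82 ± 0.25 in females of day 29), and Abcc2 and Atp8b1 were lower in males of day 29 (-0.93 ± 0.20 and -0.92 ± 0.25). Of the basolateral efflux transporters 3 of 6 were higher in experiment A, 1 of 6 in males of day 29 and 3 of 7 in females of day 29, and 0 were lower in any data set. They were the conjugate exporter Abcc3 (1.89 ± 0.38 in experiment A, 1.47 ± 0.37 in males of day 29 and 1.55 ± 0.37 in females of day 29), Abcc1 (0.98 ± 0.27 in experiment A and 1.05 ± 0.24 in females of day 29) and Abcc5 (1.02 ± 0.23 in experiment A and 0.97 ± 0.23 in females of day 29). Of 10 other uptake carriers tested 1 was higher and 3 lower in experiment A, 1 higher in males of day 29, 2 higher and 3 lower in females of day 29, and 0 in either sex of day 8. The bile acid carrier Slc10a1 (-1.30 ± 0.29 in experiment A and -0.99 ± 0.26 in females of day 29) and the phosphate and urate carriers Slc17a1 (-1.06 ± 0.20 in experiment A and -0.91 ± 0.18 in females of day 29) and Slc17a2 (-1.07 ± 0.24 in experiment A and -0.80 ± 0.21 in females of day 29) fell, and Slc16a6 rose (1.68 ± 0.28 in experiment A, 0.92 ± 0.27 in males of day 29 and 1.64 ± 0.32 in females of day 29).

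Some factors known to act on these genes were called, all of them as lower at the highest doses. Of 13 to 14 nuclear receptors and liver factors tested, Nr1i2, the pregnane X receptor, was lower in experiment A (-0.67 ± 0.20, adjusted p = 0.0140) and Rxra in males of day 29 (-1.41 ± 0.29, adjusted p = 0.00880), and 0 were called in the other 3 data sets. Of 11 to 12 genes of the growth hormone and sex hormone axis 3 were lower in experiment A, 2 in males of day 29, 2 in females of day 29 and 0 in either sex of day 8. Of all genes 7.45, 1.76 and 3.54% were called lower in the first 3 of these data sets. The growth hormone receptor Ghr was lower in 3 data sets (-1.11 ± 0.21 in experiment A, -0.63 ± 0.17 in males of day 29 and -1.01 ± 0.25 in females of day 29). In the vehicle rats Prlr, the prolactin receptor, ranged from 1.24 to 45.7 CPM in males and from 694 to 1911 CPM in females of day 8. Over the dose trend of experiment B 1 of 9 canalicular pumps was higher and 2 lower, 3 of 7 basolateral efflux transporters were higher, 2 of 10 other uptake carriers were higher and 2 lower, 1 of 14 factors was higher and 2 lower, and 4 of 12 genes of the hormone axis were lower. Of all genes 2.69% were lower and 8.21% higher in that trend. In the same fit 0 of 10 hepatocyte markers were called (median -0.33 beside 0.0071 over all genes), and 4 of 11 macrophage, 3 of 9 T and NK cell, 2 of 7 cholangiocyte and 17 of 18 cell cycle genes were higher.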

How the data were processed

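Liver RNA was prepared with the Maxwell RSC simplyRNA kit and sequenced from TruSeq Stranded mRNA libraries. The authors trimmed the reads with Trimmomatic, aligned them to the rat genome (rn6) with Bowtie2 and counted them with HTSeq, and they deposited raw counts per gene. Tool versions and the strand setting of the counting are not given in the sources used here. Per-sample columns not used number 0. HTSeq's summary lines of unassigned reads, 35.5 to 67.1% of a rat's total in experiment B (median 41.2%), were left out. One label of the day 29 vehicle males names experiment A, but title and strain place them in B. Labels name 5 rats per group. Differential expression was tested with edgeR 4.0.16 in R 4.3.3 (TMM, low counts filtered, all doses of a data set in 1 fit, quasi-likelihood F-test), with DESeq2 1.42.0 as an alternative. Log2 fold changes come from the fit of each comparison, with SE derived from the F statistic, and CPM from TMM factors over all rats (0.733 to 1.76), so that a fold of mean CPM can differ slightly. The trend took dose as a linear term with the 4 data sets of experiment B as groups. Counting intervals are exact at 95%, and floors are 3 counts per group. They cover counting error only. The model was tested on simulated data. Counts include 1 transporter gene that is not reported here. The transporter genes and the other gene lists were chosen with earlier results of these data known. Genes described with every rat's value were among the 12 called most often among the highest dose, trend, vehicle sex and interaction results, ties by smallest adjusted p, and the others called are given by range or mean, except Slco4a1 and Slco2a1, whose rats were given after their values were seen. Partner genes were named where called in at least 2 of 5 data sets; Abcc2, Atp8b1, Nr1i2, Rxra and Prlr were named after their values were seen. Alternatives changed the tool, size factors, filter, groups in the fit, replicate block and single rats. Replicate numbers were not taken to pair rats (correlation of same-numbered rats -0.249 to 0.336), which these values do not settle. Between the vehicle sexes they were 0.0314 to 0.292 on day 8 (mean of other pairs -0.0391) and -0.182 to 0.0744 on day 29 (0.0143).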

Additional observations from a re-analysis of the deposited data

Results flagged for a closer look

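Within-group outliers were sought by Dixon's ratio in 191 groups of 5 rats, and 9 were found, about as many as the 1 in 20 that chance gives. In Slc22a8 there were 5. The vehicle male of experiment A replicate 5 was at 137 CPM, the nearest other rat at 407, and its Akr1b7 (72.8 CPM) and Prlr (89.9) were above the other 4 vehicle males (at most 7.60 and 51.1). Its male-biased Cyp2a2 (1001 CPM) and Y-linked Eif2s3y (64.4) were above them too (at most 769 and 53.1). Its Cyp2c13 (2976), Cyp3a2 (1144) and Cyp2c12 (47.0) lay within their range. The 500 mkd male of day 29 replicate 2 was at 552 CPM, the next at 381. The 500 mkd female of day 8 replicate 3 was at 0.764 CPM, the next at 0.124. The 1000 mkd female of day 29 replicate 4 was at 0.328 CPM, the next at 0.0740. The 300 mkd female of day 29 replicate 3 was at 8.79 CPM, the next at 0.515, and the male-biased Cyp2c13 (46.2 CPM), Cyp3a2 (19.8) and Cyp2a2 (62.7) were also above the other 4 females (at most 3.25, 6.02 and 27.0), while its Cyp2c12 (3705) lay within their range.

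The other 4 were single vehicle rats. In males of day 29, Slco1a2 of replicate 5 was at 130.2 CPM, the nearest at 407, and Slc22a4 of replicate 4 at 4.52 CPM, the next at 4.19, in a group of narrow range. In females, Slc22a24 of day 8 replicate 1 was at 1.31 CPM, the next at 0.309, and Slco3a1 of day 29 replicate 1 at 13.2 CPM, the next at 1.40. The response of Slc22a23 to 1000 mkd differed between the experiments by -0.93 on the log2 scale (interaction test in edgeR).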

How the results depend on the processing

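The 9 calls of experiment A became 7 to 11 with 1 rat left out, and 7 without treated replicate 2 or 5. With only vehicle and the tested dose in the fit there were 7, of which 6 were among the 9 (Slc22a4, Slc22a8 and Slco1a2 lost). In males of day 29 the count of 1 became 1 to 3, and was 2 or 3 without vehicle replicate 5 or treated replicate 3, 4 or 5. In females of day 8 the count of 1 became 0 with at least 10 counts in every rat, with the replicate block and with the fit held to vehicle and the tested dose, and 0 to 2 with 1 rat left out. In females of day 29 the count of 5 became 1 with only vehicle and the tested dose, and 2 to 6 with 1 rat left out. The trend count of 7 became 4 in males only (Slco1a1, Slco1a2, Slco2a1 and Slco1c1), 1 on day 8 only, and 5 to 7 without a replicate number; without the 1500 mkd male of day 29 replicate 3 or the 300 mkd female of day 29 replicate 3, settings chosen after seeing the data, it was 7. The vehicle counts of 6 and 7 became 6 to 6 and 5 to 8. The difference between days in females, at 0, became 1 (Slc22a8) with linear slopes and 0 again without the 300 mkd female of day 29 replicate 3, a setting chosen after seeing the data. The difference between experiments, at 2, became 4 with DESeq2, 4 with the replicate block and 0 to 4 with a replicate number left out. The 2 lower-dose calls became 11 with DESeq2, and 3 with DESeq2 size factors, without a filter, with at least 10 counts in every rat and with the replicate block, each time by Slco1a1 in males of day 29 at 1000 mkd. With the replicate block the counts were otherwise 9 in experiment A, 0 and 1 in males of days 8 and 29, 5 in females of day 29, 6 for the trend (Slco5a1 lost), and 6 and 6 for the vehicle sexes (Slco3a1 lost), and all 4 interactions between sexes or days stayed at 0. Of 582 alternative values for 38 calls of single genes 519 kept the call, 63 lost it and 0 reversed. Genes with few counts, such as Slco4a1, Slc22a24 and Slco5a1, are limited by depth.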
